A study of Homo sapiens with 10 samples.

Results

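The 84 genes described here encode proteins of the cytosolic ribosome or close paralogs of them. They were chosen from the 59386 genes of the count tables by symbol alone: RPL, RPLP, RPS or RPSA names, whether expressed or not, with pseudogenes left out. The counts came from VCaP, an established human prostate cancer cell line labelled as wild type, in which SMARCA4 or SMARCA1 had been knocked down by siRNA. SMARCA4 was targeted with siRNA A and siRNA B and SMARCA1 with siRNA A and siRNA C, at 30 pmol, and RNA was taken at 72 h. Each of the 5 conditions, the control included, had 2 libraries, which gave 4 libraries for each knockdown and 2 controls. Which siRNA the control cells received, if any, and at what dose, is not given in the sources used here. All libraries came from 1 cell line, and nothing says whether replicates were separate cultures, so that p-values measure only the spread between these libraries, which may be technical.

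A ribosome is built from a small subunit, which reads the mRNA, and a large subunit, which joins the amino acids. Each subunit holds a set of proteins, named RPS or RPL, around its ribosomal RNA, and a stalk of P proteins on the large subunit recruits elongation factors. The mRNAs of these proteins are among the most abundant of a growing cell. Most of them belong to the TOP mRNAs, which start with a C and an unbroken run of pyrimidines and whose translation is controlled through mTORC1 and the binding protein LARP1. SMARCA4 is an ATPase of the SWI/SNF chromatin remodelers, and SMARCA1 is an ATPase of the ISWI family.

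The 5′ starts of a few members show this feature. The following 25 bases run from 10 before the annotated start to the 15th base of the transcript, taken from RefSeq (GRCh38.p14) in the sense direction. Capitals mark the unbroken run of C and T that begins with a C at the start, where there is one. The first group holds a stalk gene, the members with the largest fall in the one knockdown (RPL22) or the other (RPS3A), and RPL28, which fell least among these.
RPLP0, chr12:120201097-120201121: ggcgcgaggcCCTTCTCTCgccagg
RPL22, chr1:6199581-6199605: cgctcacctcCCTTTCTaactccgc
RPS3A, chr4:151099618-151099642: cccacttccgCCCTTTTggctctct
RPS21, chr20:62387093-62387117: ctagctgcttCCTTTCTCTCTCgcg
RPL28, chr19:55385922-55385946: cctcgccttcCTCTTTCCgtctcag
The second group sets paralogs beside the gene each resembles (RPL22 stands above).
RPL22L1, chr3:170870181-170870205: ccgtagcttcCTCTCTgctctcgcg
RPS27, chr1:153990752-153990776: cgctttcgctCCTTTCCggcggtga
RPS27L, chr15:63157463-63157487: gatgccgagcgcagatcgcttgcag
RPL26, chr17:8383179-8383203: gcgtgtagttCTCTTCCCTTTTgcg
RPL26L1, chr5:172958719-172958743: tccaggggtcggcgaacgaaacgcg
RPL36A, chrX:101391001-101391025: ctcgcggtttCTTTCTTTCCgcgcc
RPL36AL, chr14:49620612-49620636: tcttccctttCCTgttaggcgagag
RPLP0, RPL22, RPL22L1, RPS27L, RPL26 and RPL36AL lie on the minus strand and the others on the plus strand. RPL22L1 carries a pyrimidine run like RPL22, whereas RPS27L and RPL26L1 start with a G.

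A start was called TOP-like where its first base was C and the next 4 were each C or T, on the sense strand only. Of the 84 members, 67 matched a RefSeq promoter by symbol, and 43 of these (64.2%) had such a start, against 1104 of all 27305 promoters (4.04%). Without paralogs, the count was 42 of 62, and among paralogs it was 1 of 5, RPL22L1. The E-box CACGTG, a sequence read the same on both strands, stood in the 300-base promoter of 4 of 67 members (5.97%) and in 7.43% of all promoters. These are matches of letters at annotated starts, and the starts used in VCaP cells were not measured here.

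The siRNAs lowered their targets. SMARCA4 had 242 and 268 CPM (counts scaled to a common library size, with TMM factors that correct for library composition) in the controls. It had 25.2 and 23.2 CPM with SMARCA4 siRNA A and 18.6 and 13.3 CPM with siRNA B. SMARCA1 had 32.3 and 31.5 CPM in the controls, 3.40 and 1.75 CPM with SMARCA1 siRNA A and 3.2 and 2.85 CPM with siRNA C. SMARCA4 had 228 to 249.7 CPM in SMARCA1 knockdown, whereas SMARCA1 had 57.4 to 83.8 CPM in SMARCA4 knockdown, above both controls. Total counts ranged from 23898545 to 34667965 per library. Replicates differed by more than counting noise, with a chi-square per gene from 3.8 for SMARCA1 siRNA C to 60.6 for SMARCA1 siRNA A. The 11 prostate and epithelial markers summed to 10309 and 10448 CPM in the controls and to between 8840.2 and 10782 CPM in the knockdowns. In SMARCA4 knockdown 4 of them rose and 2 fell, beside 22.8% and 22.3% of all genes. In SMARCA1 knockdown 2 rose and 5 fell, beside 23.8% and 23% of all genes. The 10 markers of leukocytes, fibroblasts, endothelium, muscle and basal cells summed to at most 21.1 CPM in any library, and PTPRC, which marks leukocytes, was at 0 counts in both controls. COL1A1, a collagen, made up most of this sum and rose in both knockdowns, by 0.74 and 1.21 on the log2 scale (edgeR adjusted p = 0.0351 and 0.0035). COL1A2, another collagen, had 0.627 and 3.42 CPM in the controls, at most 2.53 CPM in SMARCA4 and at most 0.064 CPM in SMARCA1 knockdown, where it fell (edgeR adjusted p = 0.0069). The part of these markers in the results was not tested.

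The controls and the knockdowns differed in another respect that moves with every comparison with the control given here. All 12 of a list of interferon-stimulated genes rose in both knockdowns, with a median log2 fold change of 8.80 in SMARCA4 and 8.86 in SMARCA1 knockdown. Together they took 0.0149% and 0.0158% of the counts in the controls and from 1.31% to 3.56% in the 8 knockdown libraries. Transfection, the interferon genes and the knockdown cannot be told apart in any comparison with the control, and their part in the results was not tested.

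Ribosomal protein mRNAs took a smaller share of all counts in every knockdown library than in either control. The 84 genes held 7.03% (95% Clopper-Pearson interval 7.02 to 7.04) and 7.15% (7.14 to 7.16) of the counts in the controls. In SMARCA4 knockdown they held 3.16% and 4.11% with siRNA A and 2.55% and 2.75% with siRNA B. In SMARCA1 knockdown they held 5.11% and 4.28% with siRNA A and 3.55% and 3.48% with siRNA C. The group means were 7.09% ± 0.0836 (SD, n = 2) for the control, 3.14% ± 0.693 (SD, n = 4) for SMARCA4 and 4.10% ± 0.760 (SD, n = 4) for SMARCA1 knockdown. The intervals cover counting error only and are far narrower than the spread between libraries. A share is relative to all other mRNA, so that less ribosomal protein mRNA per cell and a change in the number of such cells cannot be told apart in these bulk samples.

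**Figure D1:**
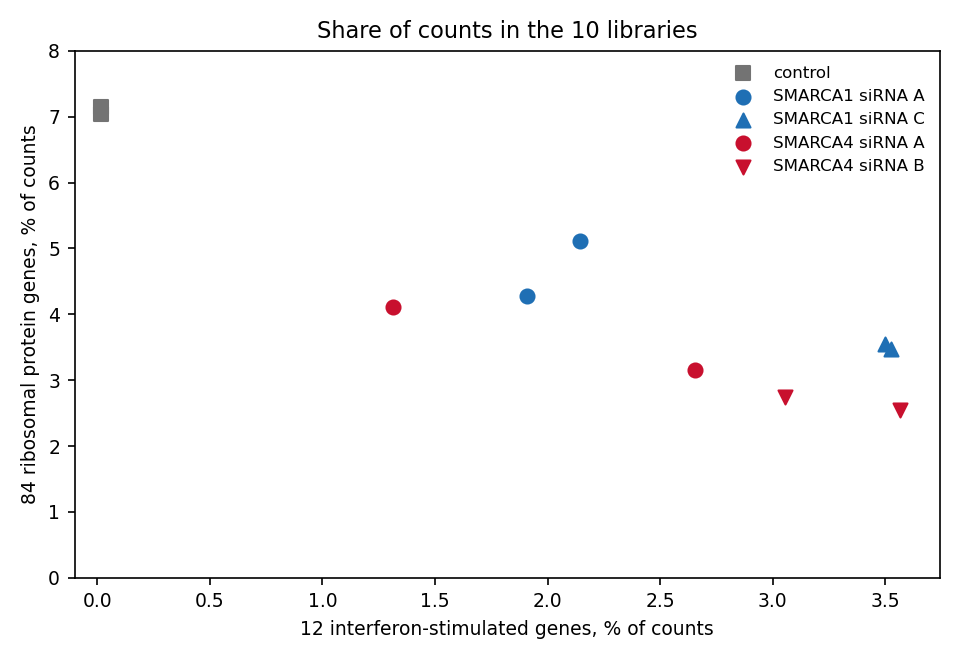
Share of all counts in the 84 ribosomal protein genes (y axis, %) against the share in 12 interferon-stimulated genes (x axis, %), 1 point per library, with the symbol giving the siRNA and the colour the target. The 2 controls sit at 7.03% and 7.15% on the y axis and under 0.02% on the x axis, and the 8 knockdown libraries sit between 2.55% and 5.11% on the y axis.

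Within the knockdown libraries, the library with the lowest interferon share of its target had one of the higher ribosomal protein shares. SMARCA4 siRNA A replicate 2 had 1.31% interferon counts and 4.11% ribosomal protein counts, the highest of the 4 SMARCA4 libraries. Both SMARCA1 siRNA A libraries had lower interferon shares (2.15% and 1.91%) and higher ribosomal protein shares than both SMARCA1 siRNA C libraries (3.50% and 3.52% interferon counts). These are values side by side, and the relation was not tested.

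Both subunits took smaller shares. Large subunit genes without paralogs, the stalk included, took 4.46% and 4.57% of the counts in the controls, and small subunit genes took 2.54% in both. The ratio of the former to the latter was 1.76 and 1.80 in the controls and between 1.83 and 1.89 in the 8 knockdown libraries, which did not overlap the controls.

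Of the 84 members, 82 passed the filter on low counts and were tested. RPL10L and RPL39L, copies of RPL10 and RPL39, had 0 counts in all 10 libraries, which allows at most between 0.0865 and 0.126 CPM (a floor of 3 counts). In SMARCA4 knockdown against control, 79 members fell (96.3%), 1 was called higher and 2 did not pass the test at an adjusted p of 0.05 (edgeR). The one called higher was RPL3L, which had 0 counts in both controls and passed the filter on low counts only through the knockdown libraries, so that its call is no evidence of a rise. Over all 16899 genes tested, 22.3% fell and 22.8% rose. The median log2 fold change of the members was −1.18 (quartiles −1.29 and −1.01), that is 44.1% of the control level, beside 0.00 for all genes. In 80 members, all 4 knockdown libraries lay below both controls, as they did in 29% of all genes.

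In SMARCA1 knockdown against control, 72 members fell (87.8%), 3 were called higher, RPL3L again among them, and 7 did not pass the test, against 23% and 23.8% of all genes that fell and rose. The median was −0.75 (quartiles −0.89 and −0.59), or 59.6% of the control level, beside 0.00 for all genes. All 4 libraries lay below both controls in 71 members, beside 29.1% of all genes. Both comparisons use the same 2 controls, so that the results are not independent of each other.

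**Figure D2:**
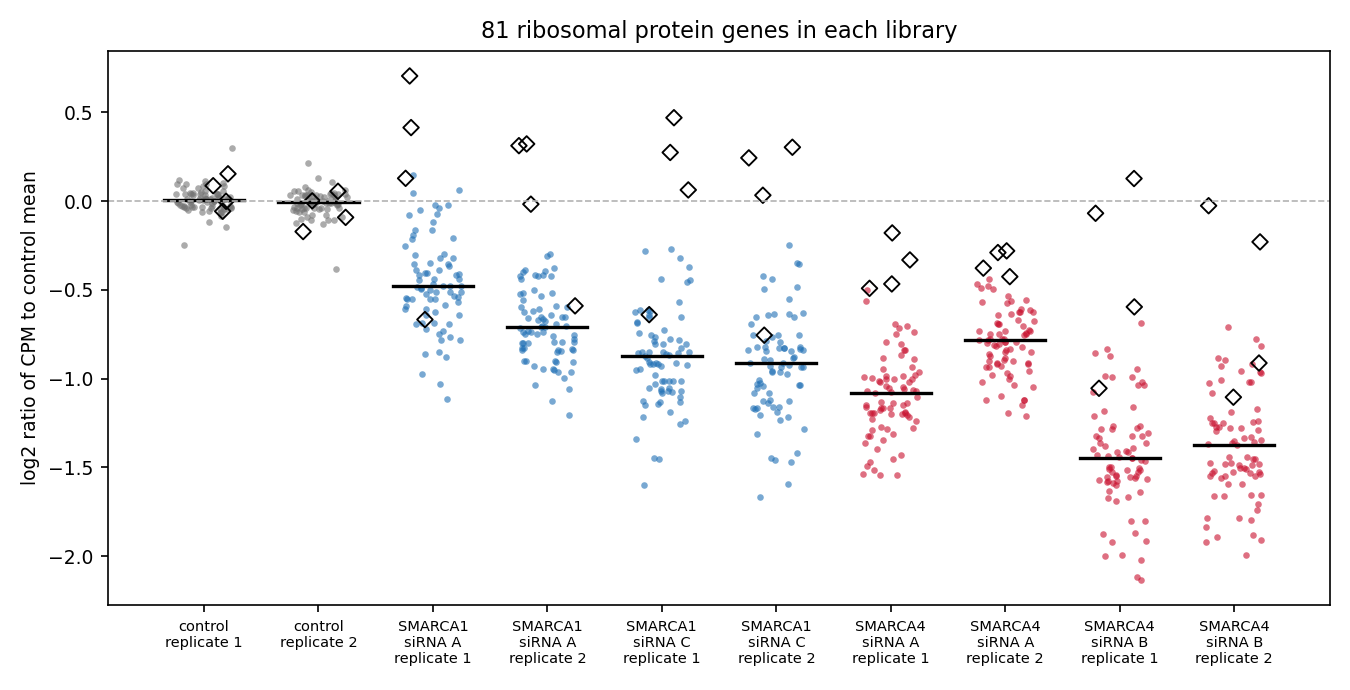
Log2 ratio of CPM to the mean of the controls (y axis) for the 81 members with counts in every library, in each of the 10 libraries (x axis). Filled points are members, open diamonds are the paralogs RPL7L1, RPL22L1, RPL26L1 and RPS27L, and bars are medians, which ran from −0.48 to −0.91 in SMARCA1 and from −0.78 to −1.44 in SMARCA4 knockdown libraries.

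Each siRNA alone gave the same direction. With SMARCA4 siRNA A, 76 members fell against 15.8% of all genes, with a median of −0.93. With SMARCA4 siRNA B, 79 fell against 21.9%, with a median of −1.45. With SMARCA1 siRNA A, 62 fell against 16.3%, with a median of −0.59, and 2 rose against 18.5% of all genes. The count of calls in this comparison came down without control replicate 1 and without control replicate 2. It did so both among members and among all genes. With SMARCA1 siRNA C, 74 fell against 21.5%, with a median of −0.88.

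The fall was wide in SMARCA4 knockdown but not of 1 size. All 43 large subunit, 31 small subunit and 3 stalk genes fell, from −1.71 for RPL22 to −0.64 for RPS15, and their medians were −1.16, −1.25 and −1.29. In SMARCA1 knockdown, 38, 30 and 3 of them fell, with medians of −0.74, −0.76 and −0.83. The standard error of most members was near 0.1, larger than the step from a member to its neighbour in this order.

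**Figure D3:**
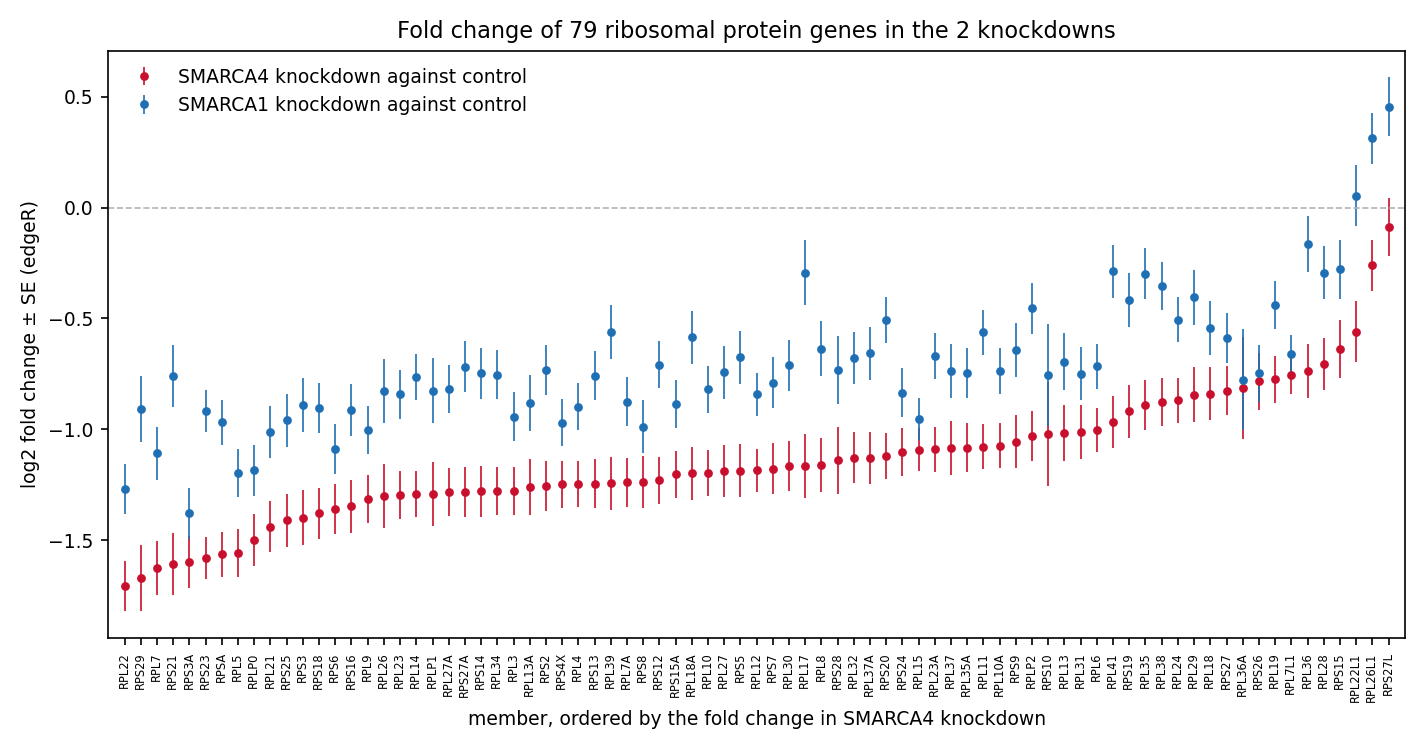
Log2 fold change ± SE (y axis, edgeR) of 79 members (x axis, ordered by SMARCA4 knockdown) in SMARCA4 (red) and SMARCA1 (blue) knockdown against control. RPL3L, at 0 counts in the controls, is among those left out, and values run from −1.71 (RPL22) to −0.09 (RPS27L) in SMARCA4 and from −1.38 (RPS3A) to 0.46 (RPS27L) in SMARCA1 knockdown.

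Among large subunit proteins, RPL22 (chr1:6185020-6209389, minus strand, hg38), an RNA-binding protein that is not needed for the assembly of the subunit, had the lowest value of all members in SMARCA4 knockdown. It had 228 and 209.8 CPM in the controls, 75.3, 95.5, 50.4 and 54.8 CPM in SMARCA4 knockdown (siRNA A, A, B, B) and 107, 114, 80.2 and 69.0 CPM in SMARCA1 knockdown (siRNA A, A, C, C). The groups did not overlap with the controls. RPL22 fell by 1.71 on the log2 scale in SMARCA4 (SE 0.11, edgeR adjusted p = 6.12e-06) and by 1.27 in SMARCA1 knockdown (SE 0.11, adjusted p = 4.61e-05). RPL7, a protein of the large subunit's outer surface, had 1849 and 1908 CPM in the controls, 646, 863, 472 and 511 CPM in SMARCA4 and 1044, 1007, 797 and 683 CPM in SMARCA1 knockdown. It fell by 1.63 (adjusted p = 1.04e-05) and by 1.11 (adjusted p = 0.000114, edgeR).

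RPL5 and RPL11 bind the 5S ribosomal RNA, and outside the ribosome this particle holds back MDM2, the ligase that degrades p53. RPL5 (chr1:92832013-92841924) had 1146 and 1108 CPM in the controls, 412, 527, 298 and 325 CPM in SMARCA4 and 574, 549, 446 and 414 CPM in SMARCA1 knockdown. RPL11 had 761 and 754 CPM in the controls, 379, 456, 303 and 314 CPM in SMARCA4 and 617, 536, 473 and 439 CPM in SMARCA1 knockdown. Every knockdown library was below both controls for both genes. RPL5 stood at 34.7% and 44% of the control mean in SMARCA4 and SMARCA1 knockdown, and RPL11 at 47.9% and 68.1%. The log2 fold changes were −1.56 ± 0.11 and −1.20 ± 0.11 for RPL5 and −1.08 ± 0.10 and −0.56 ± 0.10 for RPL11 (± SE, edgeR), and the difference between these genes was not tested.

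The stalk genes fell in the same order in both knockdowns. RPLP0, the base of the stalk, had 3155 and 3188 CPM in the controls, 1178, 1585, 868 and 951 CPM in SMARCA4 and 1727, 1589, 1160.5 and 1185 CPM in SMARCA1 knockdown. RPLP1 and RPLP2, the acidic proteins that pair on it, had 1626 and 1543 CPM and 557 and 542 CPM in the controls. The log2 fold change in SMARCA4 knockdown was −1.5 for RPLP0 (edgeR adjusted p = 1.35e-05), −1.29 for RPLP1 (adjusted p = 9.93e-05) and −1.03 for RPLP2 (adjusted p = 8.33e-05). In SMARCA1 knockdown it was −1.19 (adjusted p = 7.1e-05), −0.83 (adjusted p = 0.0014) and −0.45 (adjusted p = 0.00873), and the call of RPLP2 was lost without either control.

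RPL28 and RPL36 were among the members that fell least in both knockdowns, and RPL41 in SMARCA1 knockdown only. RPL28 (chr19:55385932-55403250) had 784 and 828 CPM in the controls, 490.4, 593, 445 and 457 CPM in SMARCA4 and 794, 621, 593 and 629 CPM in SMARCA1 knockdown. RPL36 had 243 and 242 CPM in the controls, 149, 172, 133 and 132 CPM in SMARCA4 and 268, 196, 199 and 204 CPM in SMARCA1 knockdown. RPL41, a peptide of very few residues, had 1048 and 1116 CPM in the controls, 513, 529, 607 and 569 CPM in SMARCA4 and 1054, 797, 899 and 798 CPM in SMARCA1 knockdown. SMARCA1 siRNA A replicate 1 reached the control range for RPL28 and RPL41 and lay above it for RPL36. All of these fell in SMARCA4 knockdown, by 0.70, 0.74 and 0.97, and none passed the test in SMARCA1 knockdown, at −0.29, −0.16 and −0.29 (edgeR adjusted p = 0.0665, 0.302 and 0.069). Without SMARCA1 siRNA A replicate 1 all passed it. RPL35, which was chosen after its values were seen, also missed the threshold in SMARCA1 knockdown (−0.30, adjusted p = 0.0543).

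Among small subunit proteins, RPSA, also known as the laminin receptor, fell in both knockdowns. It had 1608 and 1585 CPM in the controls, 576, 720.1, 436 and 463 CPM in SMARCA4 and 1048, 960.4, 669 and 656 CPM in SMARCA1 knockdown. RPS3A (chr4:151099624-151104642), which binds initiation factors, had 1487 and 1462 CPM in the controls, 525, 713, 369 and 397 CPM in SMARCA4 and 679.7, 639, 487 and 488 CPM in SMARCA1 knockdown. RPSA fell by 1.56 and 0.97 (edgeR adjusted p = 5.61e-06 and 0.000101). RPS3A had log2 fold changes of −1.6 (adjusted p = 9.39e-06) and −1.38 (adjusted p = 3.41e-05), the lowest value of a member in SMARCA1 knockdown. Both share most of their sequence with other genes, as given further on.

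RPS6, the kinase substrate whose phosphorylation reports mTORC1 activity, had 2107 and 2013 CPM in the controls, 849.8, 1103, 639 and 683 CPM in SMARCA4 and 1132, 989, 886 and 878 CPM in SMARCA1 knockdown. RPS29 and RPS21 are small proteins, and RPS29 binds zinc. RPS29 had 228 and 194 CPM in the controls, 72.5, 91.3, 48.0 and 59.0 CPM in SMARCA4 and 149, 117, 104 and 85.1 CPM in SMARCA1 knockdown. RPS21 had 309 and 274 CPM in the controls, 102, 144, 71.8 and 77 CPM in SMARCA4 and 219.8, 179, 155 and 142 CPM in SMARCA1 knockdown. All 3 were below both controls in every knockdown library. In SMARCA4 knockdown RPS6, RPS29 and RPS21 fell by 1.36, 1.67 and 1.61 on the log2 scale (edgeR adjusted p = 1.96e-05, 2.59e-05 and 2.27e-05). The falls with SMARCA1 siRNAs were 1.09, 0.91 and 0.76 (adjusted p = 9.3e-05, 0.000941 and 0.00172).

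RPS15, which takes part in the export of the small subunit, fell least of the members without paralogs in SMARCA4 knockdown. It had 594 and 645 CPM in the controls, 384, 445, 385 and 379 CPM in SMARCA4 and 647, 462, 478 and 462 CPM in SMARCA1 knockdown, where 1 library reached the controls. The log2 fold change was −0.64 ± 0.13 (edgeR adjusted p = 0.00292) and −0.28 ± 0.13 (adjusted p = 0.105), and the first lost its call when control replicate 2 was left out. RPS26, which helps to read the start site's context, had 400.3 and 391 CPM in the controls and stood at 58.5% and 59.6% of their mean. RPS26 fell by 0.78 and 0.75 (edgeR adjusted p = 0.000848 and 0.0012). RPS4X, the copy of RPS4 on the X chromosome, fell by 1.25 and 0.97 (adjusted p = 2.01e-05 and 0.000112).

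Genes that encode ubiquitin or a like protein fused to a ribosomal protein differed in their values. RPS27A, a ubiquitin fusion, had 601 and 553 CPM in the controls, 252, 313, 198 and 199.5 CPM in SMARCA4 and 441, 383, 319.6 and 277 CPM in SMARCA1 knockdown, and it fell by 1.28 and 0.72 (edgeR adjusted p = 2.58e-05 and 0.000804). FAU, which carries RPS30 behind a ubiquitin-like part, is a ribosomal protein gene by function but falls outside the symbol rule. FAU fell by 0.41 in SMARCA4 knockdown (adjusted p = 0.0273) and had a value of 0.10 in SMARCA1 knockdown (adjusted p = 0.566). RACK1, a scaffold on the head of the small subunit, fell by 1.12 and 0.92 (edgeR adjusted p = 3.89e-05 and 0.000162). Of the 5 genes of this list outside the rule, 4 fell in SMARCA4 knockdown, and 2 fell and 1 rose in SMARCA1 knockdown. Of all genes, 22.3% fell and 22.8% rose in SMARCA4, and 23% fell and 23.8% rose in SMARCA1 knockdown. With so few genes these counts are no result about the list.

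Of the 7 paralogs among the members, 4 had counts in the controls. In SMARCA4 knockdown 2 of these fell (RPL7L1 and RPL22L1) and none was called higher, beside 22.3% and 22.8% of all genes. In SMARCA1 knockdown 1 fell (RPL7L1) and 2 rose (RPS27L and RPL26L1), beside 23% and 23.8% of all genes. With so few genes these shares are no result about paralogs as a group, and the difference from the genes they resemble was not tested. The call of RPL22L1 was lost without control replicate 1, and that of RPL26L1 with DESeq2, with library totals alone and without either control, among others. The call of RPS27L was lost without control replicate 2 and without SMARCA1 siRNA C replicate 1.

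RPS27L (chr15:63125872-63158021), known as a target of p53, had 31.8 and 28.1 CPM in the controls, 26.5, 24.7, 32.7 and 29.4 CPM in SMARCA4 and 48.9, 37.2, 41.5 and 37.0 CPM in SMARCA1 knockdown. All SMARCA1 libraries lay above both controls, and the SMARCA4 libraries overlapped them. The log2 fold change was −0.09 ± 0.13 (edgeR adjusted p = 0.61) in SMARCA4 and 0.46 ± 0.13 (adjusted p = 0.0168) in SMARCA1 knockdown. The gene it resembles, RPS27, had 703 and 657 CPM in the controls and fell by 0.83 (adjusted p = 0.000266) and 0.59 (adjusted p = 0.00205).

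RPL26L1 (chr5:172958729-172969771) had 12.3 and 13.3 CPM in the controls, 9.29, 10.5, 12.2 and 10.9 CPM in SMARCA4 and 17.1, 16, 15.5 and 15.2 CPM in SMARCA1 knockdown. The controls lay below all SMARCA1 libraries and above all SMARCA4 libraries. RPL26L1 had values of −0.26 ± 0.11 (edgeR adjusted p = 0.0861) and 0.31 ± 0.11 (adjusted p = 0.0458), whereas RPL26 fell by 1.30 and 0.83. The counts of RPL26 are uncertain, as 65.3% of its transcript lies inside exons of another gene on the same strand. RPL22L1, which can take the place of RPL22 and whose own mRNA RPL22 is known to restrain, had 15.6 and 12.5 CPM in the controls, 11.2, 10.5, 9.30 and 7.47 CPM in SMARCA4 and 15.4, 13.9, 14.7 and 14.4 CPM in SMARCA1 knockdown. RPL22L1 fell by 0.56 in SMARCA4 knockdown (adjusted p = 0.00751) and had a log2 fold change of 0.05 in SMARCA1 knockdown (adjusted p = 0.767). RPL7L1, a protein of large subunit assembly, had 331 CPM in both controls and fell by 0.76 and 0.66 (adjusted p = 0.000105 and 0.000276).

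RPL36AL, which falls outside the symbol rule, encodes nearly the same protein as RPL36A. It had 94.0 and 84.5 CPM in the controls, 111, 95.3, 101 and 90 CPM in SMARCA4 and 128, 94.9, 126 and 123 CPM in SMARCA1 knockdown. It had a log2 fold change of 0.15 (edgeR adjusted p = 0.373) and rose by 0.40 in SMARCA1 knockdown (adjusted p = 0.0319), a call lost without either control and without either SMARCA1 siRNA C library. RPL36A had 1.71 and 2.01 CPM in the controls and fell by 0.81 and 0.78 (adjusted p = 0.0154 and 0.0191), calls that were lost with DESeq2 and without either control. RPL3L, the copy of RPL3 used in muscle, had 0 counts in both controls and at most 17 counts in any library. Its mean was 0.205 CPM in SMARCA4 and 0.348 CPM in SMARCA1 knockdown, where a floor of 3 counts in each control library is 0.119 CPM. It passed the filter only through the knockdown libraries, so that these values are no evidence of a rise.

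The ratio of paralog to canonical gene rose in each expressed pair in both knockdowns, where the canonical gene fell. In SMARCA4 knockdown none of these paralogs was called higher, and RPL7L1 and RPL22L1 fell. The median log2 fold change of members was −1.18 in SMARCA4 and −0.75 in SMARCA1 knockdown, below that of all genes. A typical gene therefore also gained against a typical member, and a rise of these ratios alone is no result about paralogs. Counts per base of merged exon, the length given beside the counts, were used for these ratios. RPL22L1 stood at 13.5% and 15.6% of RPL22 in the controls, between 24.9% and 42.0% in SMARCA4 and between 27.8% and 47.4% in SMARCA1 knockdown. RPS27L stood at 0.499% and 0.528% of RPS27 in the controls, between 0.623% and 1.11% in SMARCA4 and between 0.983% and 1.14% in SMARCA1 knockdown. RPL7L1 stood at 6.00% and 6.18% of RPL7 in the controls, between 10.2% and 12.6% in SMARCA4 and between 6.91% and 9.93% in SMARCA1 knockdown. The mean log2 ratio rose above the control by 1.15 and 1.33 for RPL22L1 to RPL22, by 0.74 and 1.04 for RPS27L to RPS27, and by 0.88 and 0.45 for RPL7L1 to RPL7 (SMARCA4, then SMARCA1). No knockdown library overlapped the controls in any of these pairs, and the ratios themselves were not tested.

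**Figure D4:**
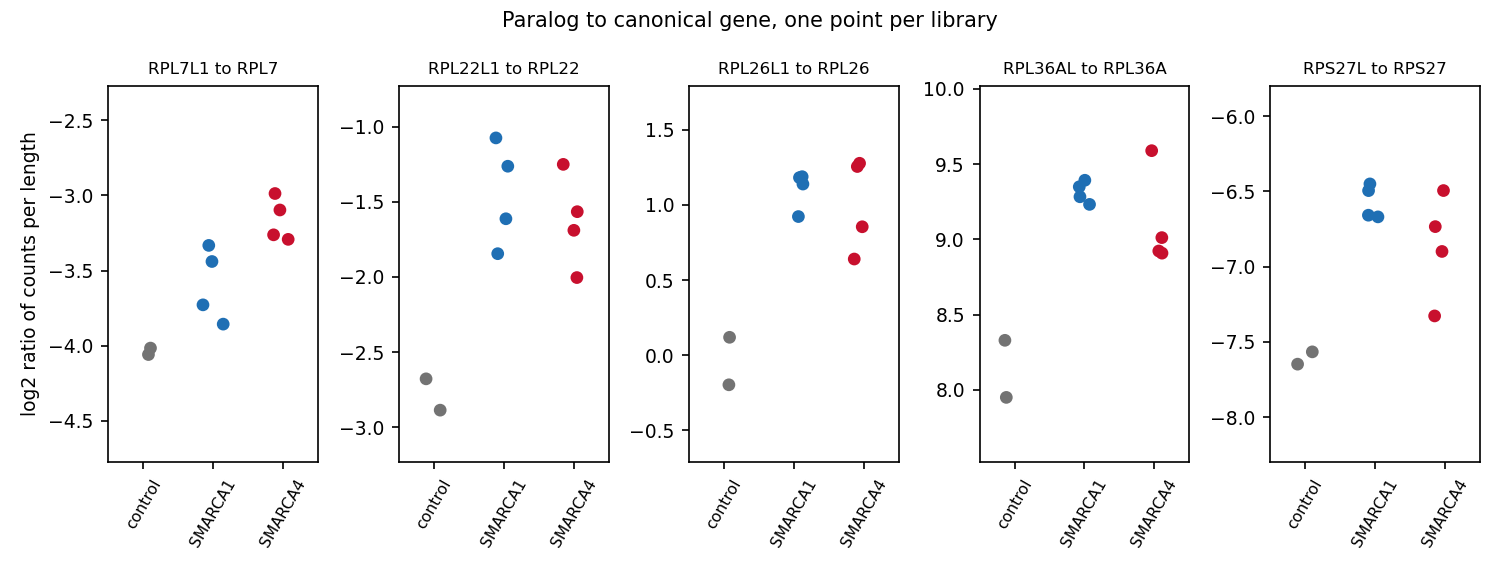
Log2 ratio of counts per length, paralog to canonical gene (y axis, a span of equal size in each panel), in the controls and the SMARCA1 and SMARCA4 knockdown libraries (x axis), 1 point per library. In each of the 5 pairs every knockdown library lies above both controls, and the ratios of RPL26 and RPL36A rest on counts that other genes share.

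SMARCA4 knockdown gave lower values than SMARCA1 knockdown in all 82 tested members, and 70 of them passed the test as lower (85.4%, against 19.1% of all genes). No member was called higher, against 16.3% of all genes. The median difference was −0.45, beside −0.01 for all genes. Without SMARCA1 siRNA C replicate 1 the count called was lower, both among members and among all genes. The libraries of the knockdowns overlapped, however: all 4 SMARCA4 libraries lay below all 4 SMARCA1 libraries in 13 of 82 members, a share near the 13.8% of all genes. Relative to the controls' mean, the members' median log2 ratios were −1.08 and −0.78 with SMARCA4 siRNA A and −0.87 and −0.91 with SMARCA1 siRNA C.

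The members with the largest difference were RPL17, RPS21, RPS29, RPL39 and RPL41, at −0.87, −0.85, −0.76, −0.68 and −0.68 (edgeR adjusted p = 0.000671, 0.000643, 0.00157, 0.000877 and 0.000762). The counts of RPL17 are uncertain, as 96.9% of its transcript lies inside exons of other genes on the same strand. RPL39, which lines the exit tunnel, had 223 and 195 CPM in the controls, 93.5, 112, 69.4 and 81.8 CPM in SMARCA4 and 167, 142, 136 and 124 CPM in SMARCA1 knockdown, without overlap of the groups. Its call against the control in SMARCA1 knockdown was lost without control replicate 1. RPS26, RPL36A, RPL7L1, RPL15 and RPS3A were at the other end, at −0.04, −0.04, −0.09, −0.14 and −0.22, and none of these passed the test. RPL15 had 1408 and 1366 CPM in the controls, 693, 811, 554 and 572 CPM in SMARCA4 and 808, 712, 668 and 682 CPM in SMARCA1 knockdown. RPL3, which forms part of the peptidyl transferase region, and RPL10, which joins the subunit last, differed by −0.33 (adjusted p = 0.0195) and −0.38 (adjusted p = 0.00927).

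The siRNAs of a target also differed. SMARCA4 siRNA A gave higher values than siRNA B in 79 of 82 members, with a median of 0.46, and 28 passed the test (34.1%, against 3.04% of all genes as higher and 3.17% as lower). RPL4, RPS21 and RPS13 led these, the first and last chosen after their values were seen, at 0.73, 0.73 and 0.72 (edgeR adjusted p = 0.0145, 0.0335 and 0.0177). The count of 28 rested on the libraries in the fit. It was 0 without SMARCA4 siRNA A replicate 2 or either siRNA B library, 5 without either control or either SMARCA1 siRNA C library, and between 52 and 60 without SMARCA4 siRNA A replicate 1 or either SMARCA1 siRNA A library. It was 1 when only the SMARCA4 libraries were fitted, where 98 of all 15979 genes were called as higher and 114 as lower. With DESeq2 it was 48, beside 821 of all 16899 genes as higher and 853 as lower. The number of all genes called also moved between the fits with 1 library left out. SMARCA1 siRNA A also gave higher values than siRNA C in 79 of 82 members, with a median of 0.31. None of these passed edgeR's test (0% of all genes passed it as higher and 0.0118% as lower). An unadjusted edgeR p under 0.05 was found in 43 (all genes 17.1%). DESeq2 called 4 members, beside 153 of all 16899 genes as higher and 363 as lower. With 1 library left out, edgeR's median ran from 0.21 to 0.46, and the counts called moved, both of members and of all genes.

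Levels per length placed members from highly abundant to nearly absent in the controls. In TPM, counts per length scaled to a common sum, on merged exon lengths, RPS18, RPS12, RPL41 and RPL13A were among the highest, at 5010.4 ± 17.4, 4608 ± 164, 4278 ± 208 and 3952 ± 206 TPM (SD, n = 2). RPS12 and RPL41, and RPL41 and RPL13A, differed by less than the sum of their SDs. The median member stood at 887 TPM. On the length of the MANE transcript, 1 reference transcript a gene, RPS18 was still highest at 9464 TPM and RPS12 was 26th, and the rank correlation of the scalings was 0.876 over 84 genes. Merged exons hold rarely used exons, so that these levels depend on the length chosen while ratios between libraries do not.

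The lowest members were those without counts (RPL10L, RPL39L and, in the controls, RPL3L), and RPL36A and RPS10 were also low at 2.1 and 4.3 TPM. Both of these, and RPL26 and RPL17, have from 43.8% to 96.9% of their transcript inside exons of a readthrough or overlapping gene on the same strand (RPS10-NUDT3, RPL36A-HNRNPH2 and RPL17-C18orf32 among them). RPS10 and RPL36A had between 21 and 67 counts in a library and RPL26 and RPL17 between 230 and 719. Reads in such exons have more than 1 possible gene, so that the counts of these 4 members are uncertain. All of them fell in SMARCA4 knockdown, and all but RPL17 fell in SMARCA1 knockdown. RPL17 had 18.6 and 22.5 CPM in the controls, 10.4, 9.46, 8.87 and 8.07 CPM in SMARCA4 and 21.2, 16.7, 16.4 and 13.2 CPM in SMARCA1 knockdown.

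Many members also share sequence with other genes, and the kinds of these genes were not sorted. In 13 of 77 members without paralogs, over 50% of the 75-base windows of the transcript occurred in transcripts of other genes, as in RPS3A (84.4%), RPSA (66.8%) and RPS27 (65.1%). Their median log2 fold change was −1.30 in SMARCA4 and −0.79 in SMARCA1 knockdown, beside −1.18 and −0.75 for the other 64. The pseudogenes named for ribosomal proteins held only 0.0283% to 0.0871% of the counts. Adding them to their parent gene changed no count of members called by over 1.5 times.

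Members rich in GC tended to fall less. GC content of the MANE transcript ran from 40.1% to 63.6% over 77 members without paralogs (median 47.6%, all genes 48.7%). The rank correlation of GC content with the log2 fold change was 0.38 in SMARCA4 and 0.45 in SMARCA1 knockdown across these genes, and 0.21 and 0.32 across all 13465 genes with a value. Genes are not independent replicates, the fold changes share their libraries, and the part of base composition in the result was not tested.

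**Figure D5:**
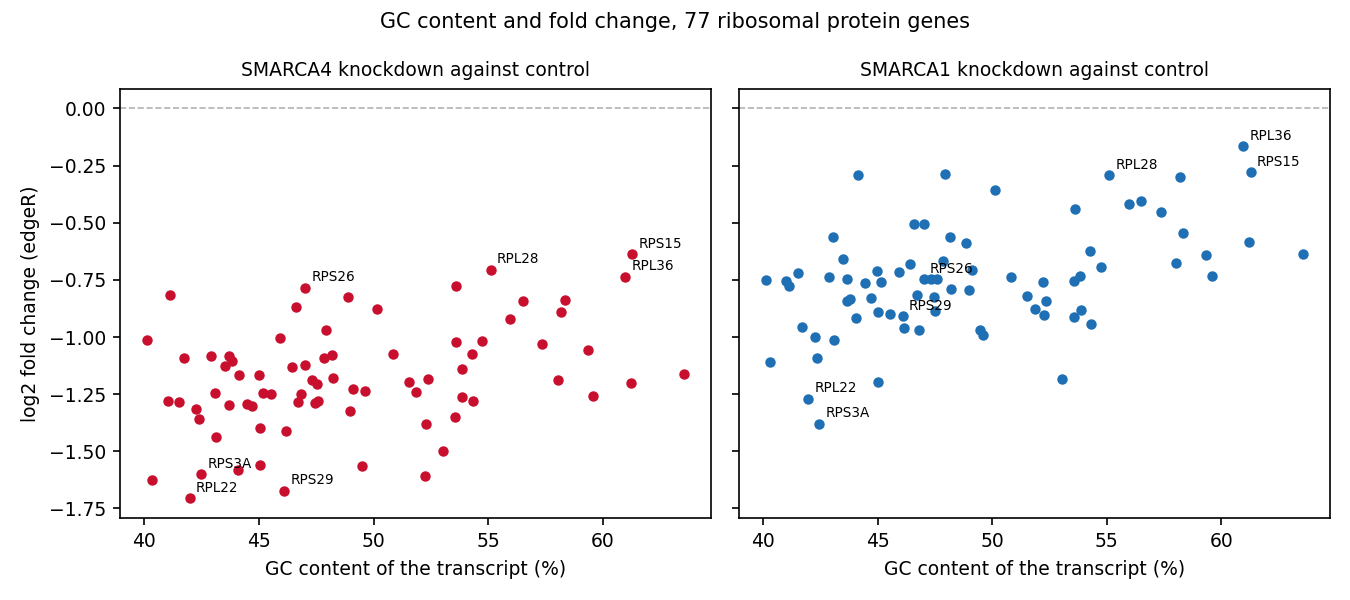
Log2 fold change against control (y axis, edgeR) against GC content of the MANE transcript (x axis, %) for 77 members without paralogs, in SMARCA4 (left) and SMARCA1 knockdown (right). All points lie below 0, with RPS15 and RPL36 near the right and RPL22 and RPS3A near the left edge.

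Members with and without a TOP-like start at the annotated position had similar values. The starts used in VCaP cells were not measured, and the members without such a start may include TOP mRNAs. The comparison therefore cannot tell whether TOP mRNAs fell more than others. The 42 members without paralogs that had such a start had a median of −1.24 in SMARCA4 and −0.76 in SMARCA1 knockdown, and the 20 with another annotated start had −1.15 and −0.74. All 42 and all 20 fell in SMARCA4 knockdown. Among tested genes that are no members, 566 had such a start. Of these, 169 fell and 122 rose in SMARCA4 knockdown, and 162 fell and 112 rose in SMARCA1 knockdown, with medians of −0.08 and −0.06. These are 29.9% lower and 21.6% higher in SMARCA4 and 28.6% lower and 19.8% higher in SMARCA1 knockdown. Among the 11045 other genes with another annotated start, 21.9% fell and 24.8% rose in SMARCA4, and 22.4% fell and 25.5% rose in SMARCA1 knockdown. The difference between these sets was not tested.

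Genes outside the ribosome that are known for TOP mRNAs also fell. Of a list of 16 elongation and initiation factors and related genes, 15 were tested. All 15 fell in SMARCA4 knockdown (median −1.02, against 22.3% of all genes) and 14 in SMARCA1 knockdown (median −0.79, against 23%). EEF1A1, which brings aminoacyl-tRNA to the ribosome, had 12825 and 13338 CPM in the controls, 5524, 7126, 3977 and 4056 CPM in SMARCA4 and 6291, 6366, 5153 and 5105 CPM in SMARCA1 knockdown. PABPC1, the poly(A) binding protein, fell by 1.61 and 1.09 (edgeR adjusted p = 2.87e-06 and 3.38e-05). EEF1D was the exception in SMARCA1 knockdown (−0.13, adjusted p = 0.346), and EEF1G was listed at 0 in all libraries and not tested.

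Genes of the pathway that controls TOP mRNAs did not move in 1 direction. Of 9 genes, 3 fell and 1 rose in each knockdown. These counts lie near the shares of all genes, of which 22.3% fell and 22.8% rose in SMARCA4 and 23% fell and 23.8% rose in SMARCA1 knockdown, and are no result about the pathway. LARP1, which binds the TOP start, had 688 and 709.7 CPM in the controls, 352, 359, 459 and 501 CPM in SMARCA4 and 467, 630.3, 515 and 509.8 CPM in SMARCA1 knockdown, and fell by 0.76 and 0.40 (edgeR adjusted p = 0.000577 and 0.0183). EIF4EBP2, an inhibitor of the cap-binding factor, fell by 1.30 and 1.06 (adjusted p = 0.000123 and 0.000458). RPTOR, a subunit of mTORC1, rose by 0.45 and 0.41 (adjusted p = 0.0021 and 0.00377). MTOR itself had a log2 fold change of −0.05 in SMARCA4 (adjusted p = 0.793) and fell by 0.41 in SMARCA1 knockdown (adjusted p = 0.0388).

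Chaperones and assembly factors of single ribosomal proteins were looked at in the same way. Of 8 genes, 3 fell and none rose in SMARCA4 knockdown, and 3 fell and 1 rose in SMARCA1 knockdown, with medians of −0.13 and 0.12. These counts too lie near the shares of all genes (22.3% and 22.8%, and 23% and 23.8%) and are no result about the list. PDCD2, the chaperone of RPS2, fell by 0.46 and 0.52 (edgeR adjusted p = 0.00265 and 0.00132), and LTV1, a factor of small subunit assembly, by 0.51 and 0.33 (adjusted p = 0.00592 and 0.0419). HEATR3, which takes RPL5 to the nucleus, had −0.11 (adjusted p = 0.521) and fell by 0.47 in SMARCA1 knockdown (adjusted p = 0.0123). GRWD1, the chaperone of RPL3, had values of 0.01 (edgeR adjusted p = 0.937) and 0.40 (adjusted p = 0.0172) in SMARCA4 and SMARCA1 knockdown. BCCIP, the chaperone of RPL23, had −0.46 (adjusted p = 0.00266) and 0.17 (adjusted p = 0.167). TSR2, the chaperone of RPS26, had 0.02 and 0.24 (adjusted p = 0.904 and 0.118).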

How the data were processed

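RNA-seq of 10 VCaP libraries was used. Libraries were directional and made by the authors from poly(A) RNA. Per the submitters' processing notes, HISAT2 2.1.0, featureCounts 1.5.2 and hg38 were used, and the gene annotation release is not given in the sources used here. The deposited values are raw counts, whole numbers without normalization. All libraries were fitted together as 5 groups in edgeR 4.0.16 (R 4.3.3; filterByExpr with a minimum count of 10 and a minimum total of 15, TMM, glmQLFit, glmQLFTest), which left 16899 genes. Each knockdown entered contrasts as the average over its siRNAs. P-values were adjusted by Benjamini-Hochberg over all genes, and a call needs an adjusted p below 0.05. SE is the absolute log2 fold change over the square root of F. The fit was tested on simulated data.

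TPM used the merged exon lengths of the count tables. Coordinates are those of the count tables, and 82 of 84 members have the same start and end in GENCODE 44, whose MANE transcripts gave GC content and 75-base windows. Paralogs are RPL3L, RPL7L1, RPL10L, RPL22L1, RPL26L1, RPL39L and RPS27L.

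The genes named are a set list, the paralog pairs, the 5 highest and 5 lowest fold changes in 3 comparisons (at least 1 CPM on average), members called against the majority, and the 5 highest and lowest levels; others are said to be chosen after their values were seen. Some genes that this rule names are not reported here. The members, lists and alternatives were chosen with earlier results of these data known.

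Libraries were not taken as paired: replicate differences correlated above 0.1 among SMARCA4 siRNA A, SMARCA4 siRNA B and SMARCA1 siRNA A, but not in any pair of groups that held the control or SMARCA1 siRNA C, and no label ties a number to a shared culture or day. Alternatives were DESeq2 1.42.0, other normalizations and filters (a minimum count of 50 among them), a block on replicate number, fits limited to the groups compared, pseudogene counts added and each library left out. Counts without the 5 members that share a readthrough gene, and the alternatives for each siRNA alone, were chosen after seeing the data.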

Additional observations from a re-analysis of the deposited data

Results flagged for a closer look

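The knockdowns differed from each other in 70 members by edgeR's test of the difference itself, and the SMARCA4 siRNAs differed in 28, with the values given above. Of all genes, 19.1% were lower and 16.3% higher between the knockdowns. Between the SMARCA4 siRNAs, 3.17% were lower and 3.04% higher.

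In 66 groups of 4 libraries (the share of counts and each named gene that was tested, in either knockdown), 4 had a library far from the other three by Dixon's ratio, which chance gives in about 1 in 20 groups. The ratio of the gap to the range was 0.899 for RPS15 in SMARCA4 knockdown, where siRNA A replicate 2 was high. It was 0.911 for RPS15, 0.891 for RPL36 and 0.907 for RPL26 in SMARCA1 knockdown, each with siRNA A replicate 1 high.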

How the results depend on the processing

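Over the named genes, 1917 alternative values were computed, of which 1823 kept direction and side of the threshold, 72 lost a call, 15 gained one and 7 changed sign. The cause was not tested for any of these. Leaving out 1 library at a time, the members called were 76 to 80 in SMARCA4 and 64 to 80 in SMARCA1 knockdown against control, 46 to 75 between the knockdowns, and 29 to 69 for SMARCA1 siRNA A against control. The count for SMARCA4 siRNA A against siRNA B was 48 with DESeq2, 16 with upper quartile normalization, 56 without a filter, 1 with only the groups compared and 0 to 60 without 1 library, with medians of 0.30 to 0.62. For SMARCA1 siRNA A against siRNA C it was 4 with DESeq2, 22 without a filter and 0 to 36 without 1 library, with medians of 0.21 to 0.46. The number of all genes called also moved between these alternatives, so that the counts of members are not to be read alone. The control share of counts was 7.18% with pseudogene counts added and 7.23% of non-mitochondrial counts.

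Values that changed sign were not called. RPL36A between the knockdowns was 0.0176 with pseudogene counts added, and −0.16 to 0.10 without 1 library (0.08 without SMARCA1 siRNA A replicate 1). Without 1 library, RPS26 between the knockdowns ran from −0.14 to 0.10 (0.04 without SMARCA4 siRNA A replicate 1), RPS27L in SMARCA4 knockdown from −0.15 to 0.0413, and RPL22L1 in SMARCA1 knockdown from −0.0833 to 0.25.

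The correlation of replicate differences ran from −0.10 to 0.36 over pairs of groups, with 0.36, 0.27 and 0.13 among SMARCA4 siRNA A, SMARCA4 siRNA B and SMARCA1 siRNA A, so that the numbers were not taken to pair all libraries. With the replicate number as a block, 80 members were called in SMARCA4 and 73 in SMARCA1 knockdown, 70 between the knockdowns, 29 between the SMARCA4 and 0 between the SMARCA1 siRNAs. Of all 16899 genes, this fit called 3910 as higher and 3878 as lower in SMARCA4, and 4044 and 3967 in SMARCA1 knockdown. It called 2881 and 3366 between the knockdowns, 590 and 711 between the SMARCA4 siRNAs, and 5 and 11 between the SMARCA1 siRNAs. Counts limit RPL3L, RPL10L, RPL39L, RPS10 and RPL36A, which had at most 67 counts in a library.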
